A study of Drosophila melanogaster with 6 samples.

Results

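Gcn5 sites called in every one of the 3 ChIP-seq libraries numbered 885 on the autosomal arms 2L, 3L and 3R of Drosophila melanogaster. They were found by pooling the peak lists, merging peaks that overlapped by at least 1 bp into union regions, and keeping the regions that held a peak of each list. The 885 regions were 19.2% of the 4608 union regions on these arms (exact 95% binomial interval 18.1 to 20.4%), and the series as a whole gave 7972 union regions over all sequences. The sites were thus chosen by the peak calls of all 3 libraries, so the counts, shares, widths and scores below describe the selected sites and carry no test. Arm 2R and chromosome 4 were not part of the selection.

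The libraries came from chromatin of 2 cultured cell lines of embryonic origin, Kc and S2, immunoprecipitated with a rabbit polyclonal antibody to Gcn5 at 5 µg per reaction. The first group was Kc cells given CP190 dsRNA, the second Kc cells given GFP dsRNA, and the third S2 cells given GFP dsRNA. GFP is not a fly gene, so its dsRNA serves as the control. All cells were grown in Schneider's medium with 10% serum at 25 °C and received 90 µg of dsRNA per 6000000 cells. Each group had 1 library. The 3 matching inputs were not analysed here, and how far CP190 was depleted is not given in the sources used here.

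Gcn5 is the enzyme that gives the SAGA and ATAC coactivator complexes their histone acetyltransferase activity, with histone H3 at promoters and enhancers of active genes as a main substrate. CP190, a BTB domain protein with zinc fingers, is brought to chromatin by DNA-binding insulator proteins such as Su(Hw), CTCF and BEAF-32 and is also found at many promoters. The title and design of the series ask how far Gcn5 depends on CP190 for its place on chromatin. The sites described here are those at which Gcn5 was called with the CP190 dsRNA as well as with the control dsRNA, and in the second cell line too.

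Almost as many regions as those of all 3 lists, 919, held a Kc GFP RNAi and an S2 peak but no Kc CP190 RNAi peak. A further 669 held a peak of both Kc lists and no S2 peak, and 157 a Kc CP190 RNAi and an S2 peak without a Kc GFP RNAi peak. The remaining regions belonged to 1 list each, 499 to Kc CP190 RNAi, 347 to Kc GFP RNAi and 1132 to S2. Of the 1804 regions with a Kc GFP RNAi and an S2 peak, 49.1% also had a Kc CP190 RNAi peak. Of the 1554 with a peak of both Kc lists 56.9% had an S2 peak, and of the 1042 with a Kc CP190 RNAi and an S2 peak 84.9% had a Kc GFP RNAi peak. These shares are set by the same calls as the selection, and nothing is read from them.

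The sites took up different parts of the 3 lists, which differ in length. They held 937 of the 2274 autosomal Kc CP190 RNAi peaks (41.2%), 930 of the 2873 Kc GFP RNAi peaks (32.4%) and 912 of the 3134 S2 peaks (29.1%). With each list cut to its 2274 highest-scored peaks, the shares were 30.7%, 30.5% and 29.9% in the same order. Most sites, 795 of the 885, held exactly 1 peak of each list. The shares therefore largely follow from the list lengths, and near-equal shares at equal length were set in advance. Nothing is read from them. The S2 list also writes its chromosome names without the prefix used in both Kc lists, so the lists may have been processed differently, which cannot be told apart from the cell line in any comparison of Kc with S2. By arm, 246 sites lay on 2L, 302 on 3L and 337 on 3R. That was 17.4% (15.5 to 19.5%), 20.6% (18.6 to 22.8%) and 19.5% (17.6 to 21.4%) of the union regions of each arm, or 10.7, 12.3 and 12.1 sites per Mb up to the last peak. The 3 intervals overlap.

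Sites of all 3 lists were broad. The median region spanned 2020 bp (quartiles 1449 and 2959 bp), against 1246 bp (1076 and 1664 bp) for regions lacking a Kc CP190 RNAi peak and 1530 bp (1248 and 2095 bp) for regions lacking an S2 peak. For the 157 regions lacking a Kc GFP RNAi peak it was 1687 bp (1315 and 2484 bp). A union of 3 peaks is at least as wide as its widest peak, so the widths within each library are the fairer measure. These widths were summed where a list had several peaks in a region. Within the Kc GFP RNAi library the median summed width at these sites was 1633 bp, against 1119 bp in regions lacking a Kc CP190 RNAi peak and 1448 bp in regions lacking an S2 peak. Within the S2 library it was 1797 bp, against 1147 bp in regions lacking a Kc CP190 RNAi peak and 1586 bp in regions lacking a Kc GFP RNAi peak. Within the Kc CP190 RNAi library it was 1466 bp, against 1354 bp in regions lacking an S2 peak and 1371 bp in regions lacking a Kc GFP RNAi peak. In each library the median was thus higher at the shared sites, but the quartiles overlapped. Over single peaks, the medians in these sites were 1425 bp in Kc CP190 RNAi, 1583.5 bp in Kc GFP RNAi and 1748.5 bp in S2. All other peaks of each list had medians of 1314, 1203 and 1102.5 bp in the same order. A wide peak can meet a peak of another list by position alone more often than a narrow one, and the part of this in the widths was not tested.

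Scores, which are the authors' own values per peak and are read here within a list, were higher at the shared sites in both Kc lists, while in the S2 list the order depended on the class they were set against. In the Kc GFP RNAi list the median highest score of a site was 202.73 (quartiles 113.25 and 337.15), above the 167.44 of regions lacking a Kc CP190 RNAi peak and the 107.99 of regions lacking an S2 peak. In the Kc CP190 RNAi list it was 143.26 (95.38 and 225.4), above the 118.49 of regions lacking an S2 peak. In the S2 list the median was 194.36 (102.13 and 423.43) at sites of all 3 lists, below the 353.11 (163.06 and 692.54) of regions lacking a Kc CP190 RNAi peak. It was above the 94.9 of regions with a Kc CP190 RNAi but no Kc GFP RNAi peak and the 88.09 of regions called in S2 alone. Peak by peak, the median S2 score was 188.12 in sites of all 3 lists and 129.0 in all other S2 peaks together. A site needs a call in all 3 lists, and the scores of each list begin at about 50. The part of this selection in the score differences was not tested.

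**Figure D1:**
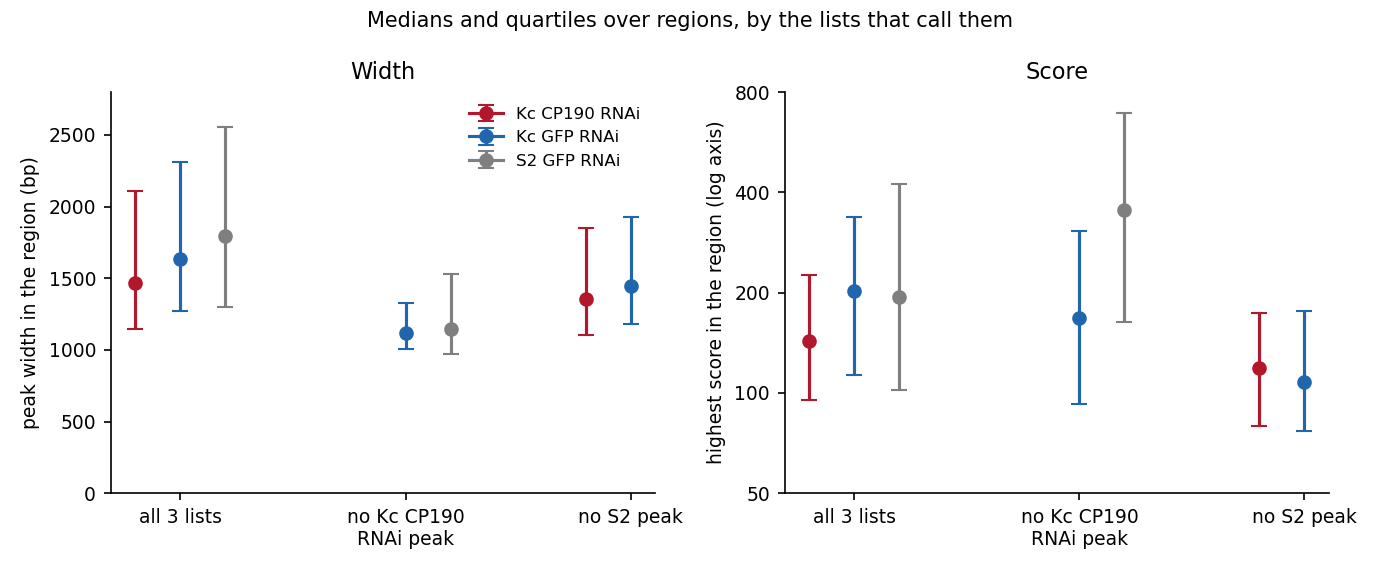
Width of the Gcn5 peaks in a region (left, bp, summed where a list had several) and highest score (right, log axis) for regions with a peak of all 3 lists and for the 2 classes that lack a Kc CP190 RNAi or an S2 peak. Points are medians and bars quartiles over regions, coloured by library; the S2 median is 1797 bp wide with a score of 194.36 at sites of all 3 lists, against 1147 bp and 353.11 where no Kc CP190 RNAi peak was called.

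The highest-scored peaks of the 3 lists fell into these sites in different shares. Among the 100 highest-scored autosomal peaks, 76 of the Kc CP190 RNAi list (66.4 to 84.0%), 54 of the Kc GFP RNAi list (43.7 to 64.0%) and 26 of the S2 list (17.7 to 35.7%) lay in sites of all 3 lists. The list-wide shares were 41.2%, 32.4% and 29.1% in the same order. The strongest Kc peaks were therefore more often in shared sites than Kc peaks at large, which was not seen in the S2 list. Sites need a call in all 3 lists, so such shares are partly set by the selection. A region lacking a Kc CP190 RNAi peak is never a site and cannot occur in the Kc CP190 RNAi list. Of the other strong S2 peaks, 73 lay in regions with a Kc GFP RNAi but no Kc CP190 RNAi peak, and 45 of the strong Kc GFP RNAi peaks did too. Of the other strong Kc CP190 RNAi peaks, 21 lay in regions with a Kc GFP RNAi peak but no S2 peak. In all, the first class held 919 regions, beside 3134 S2 and 2873 Kc GFP RNAi autosomal peaks. The second held 669 regions, beside 2274 Kc CP190 RNAi peaks. Of 100 strong peaks, 73 and 45 thus stood above the first class's part of their lists. The 21 stood below the second's, and no test was made.

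Sorted into 5 equal bins by score, the share of Kc CP190 RNAi peaks inside sites of all 3 lists climbed from 24.2% in the lowest bin (20.3 to 28.4%) to 65.3% in the highest (60.7 to 69.6%). For Kc GFP RNAi peaks the share went up at each step, with 16.9% in the lowest bin (13.9 to 20.2%) and 49.4% in the highest (45.2 to 53.6%). For S2 peaks it was 17.7% in the lowest bin (14.8 to 20.9%), 37.0% in the fourth (33.2 to 40.9%) and 32.9% in the highest (29.2 to 36.7%). The rise with score thus levelled off in the S2 list, where the intervals of the fourth and the highest bins overlap. The part of the selection in these shares was not tested.

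Sorted by width, the libraries differed in the other direction. The share of Kc GFP RNAi peaks in these sites was 7.83% in the narrowest bin (5.77 to 10.3%) and 53.4% in the widest (49.2 to 57.5%). For S2 peaks it was 5.26% (3.65 to 7.31%) and 56.3% (52.3 to 60.2%). For Kc CP190 RNAi peaks it was 34.9% (30.6 to 39.5%) in the narrowest bin and 47.3% (42.6 to 52.0%) in the widest. A narrow control peak was thus seldom part of a shared site in either cell line, whereas a narrow Kc CP190 RNAi peak was part of one in about the same share as a medium one (38.8% in the middle bin, 34.3 to 43.4%). This contrast is partly set by the selection. Regions lacking a Kc CP190 RNAi peak are never sites and cannot occur in that list. Of these 919 regions, 333 had their best-scored Kc GFP RNAi peak in the narrowest bin, and 162 their best-scored S2 peak.

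Width and score bore on membership together. Of the 30 Kc GFP RNAi peaks that were narrowest in width and highest in score, 16.7% lay in sites of all 3 lists (5.64 to 34.7%), and of the 173 that were widest and highest in score, 70.5% did (63.1 to 77.2%). In the S2 list, 1 of 16 such narrow strong peaks and 57.1% of 163 wide strong peaks did (49.1 to 64.8%). In the Kc CP190 RNAi list these shares were 60.0% of 15 peaks (32.3 to 83.7%) and 60.8% of 194 (53.6 to 67.7%). At high score, membership went with width in both control libraries. In the Kc CP190 RNAi list no steady rise was seen. From the narrowest to the widest bin its shares were 60.0%, 70.0%, 63.5%, 72.1% and 60.8%, with a wide interval for the 15 narrowest peaks. Here too the contrast with the control lists is partly set by the selection.

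**Figure D2:**
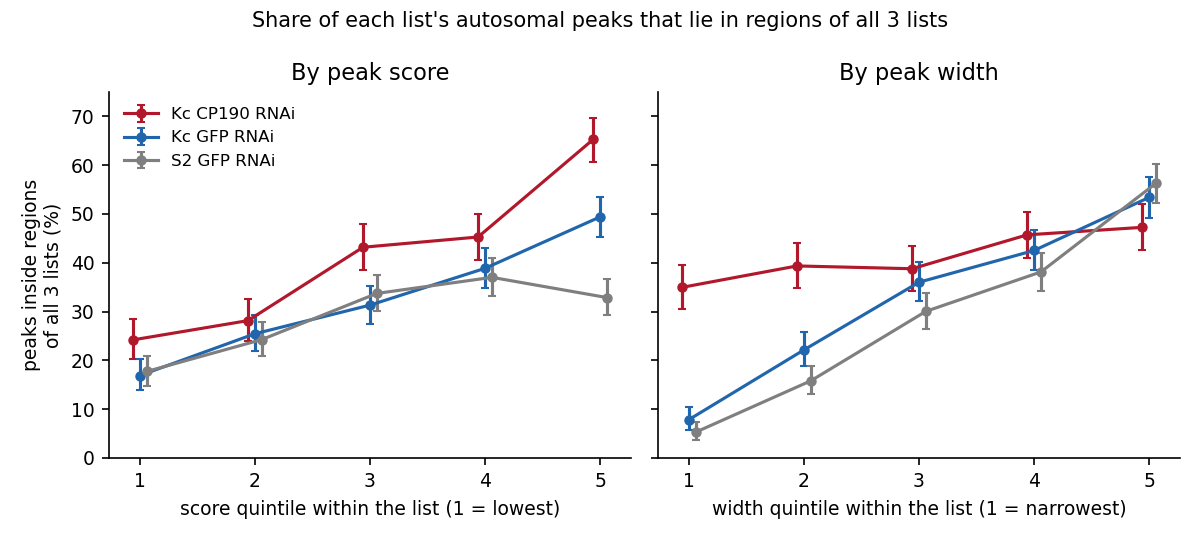
Share of each library's autosomal Gcn5 peaks that lie in sites of all 3 lists, by score quintile (left) and width quintile (right) within the list. Points are shares in percent with exact 95% binomial intervals; by score the Kc CP190 RNAi share reaches 65.3% and the S2 share 32.9% in the highest bin, and by width the Kc GFP RNAi and S2 shares span 7.83 to 53.4% and 5.26 to 56.3%, while the Kc CP190 RNAi share spans 34.9 to 47.3%.

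Most sites were simple. Exactly 1 peak of each list made up 795 of the 885 (89.8%, 87.6 to 91.7%), and 90 held more than 1 peak of at least 1 list. More than 1 Kc CP190 RNAi peak was found in 50 sites, more than 1 Kc GFP RNAi peak in 44 and more than 1 S2 peak in 27. In 871 sites (98.4%, 97.4 to 99.1%) some bases were common to a peak of all 3 lists, over a median of 1278 bp. In the remaining 14 sites the peaks were joined in a chain, with no base common to all 3 lists.

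Peaks sat at nearly the same place in the 2 Kc libraries. The median distance between their centres within a site was 65 bp between Kc CP190 RNAi and Kc GFP RNAi (quartiles 26.5 and 161 bp). It was 109.5 bp between Kc GFP RNAi and S2 (41.5 and 302 bp) and 116.5 bp between Kc CP190 RNAi and S2 (41 and 308 bp). The lists give the limits of each peak and no summit, so the centre is the middle of the called interval. Peaks had to overlap, directly or in a chain, to form a site. Short distances and common bases are thus partly set by the rule. Where all centres had to lie within 250 bp, 534 sites were left, and where every pair of peaks had to overlap by 50% of both, 736 were.

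The distances were longer in wide regions. Among the 222 narrowest sites, up to 1449 bp, the median was 31.5 bp between Kc CP190 RNAi and Kc GFP RNAi and 46.75 bp between Kc GFP RNAi and S2. Among the 221 widest, from 2960 bp, it was 161 bp and 576 bp. The bases common to all 3 peaks made up a median of 81.1% of the region in the narrowest sites and 47.7% in the widest. A region grows wider as its peaks are offset, so longer distances and a smaller common part in wide regions follow in part from sorting by region width.

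Within a site the Kc CP190 RNAi peak was narrower than the Kc GFP RNAi peak in most cases. Among the 795 sites with 1 peak of each list this held in 585 (73.6%, 70.4 to 76.6%), with a median width ratio of 0.929 (quartiles 0.827 and 1.005). The Kc CP190 RNAi peak was the narrowest of the 3 in 431 sites (54.2%, 50.7 to 57.7%). It lay wholly inside the Kc GFP RNAi peak in 377 sites (47.4%), and the Kc GFP RNAi peak lay wholly inside it in 70 (8.81%). Between Kc GFP RNAi and S2 neither library was regularly narrower. The Kc GFP RNAi peak was the narrower one in 427 sites (53.7%, 50.2 to 57.2%), and the median ratio of Kc GFP RNAi over S2 width was 0.989 (quartiles 0.833 and 1.113). The width of a called peak also depends on depth and enrichment, which the lists do not show, and with 1 library per condition their part in the narrowing was not tested.

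Widths of a site were alike across libraries, and scores less so. Over the 885 sites the rank correlation of width (Spearman's rho) was 0.775 between Kc CP190 RNAi and Kc GFP RNAi, 0.691 between Kc GFP RNAi and S2, and 0.648 between Kc CP190 RNAi and S2. For scores it was 0.302, 0.477 and 0.138 in the same order. These describe 3 libraries that share the sites, and widths of overlapping peaks are partly alike by selection. Within a list, score and width went together to a limited degree, with rho 0.421 in Kc CP190 RNAi, 0.242 in Kc GFP RNAi and 0.182 in S2.

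Ranking the sites by score within each list, from 1 to 885, shows the same. The 222 best-ranked sites are 25.1% of all. Of the 222 best-ranked sites of the Kc CP190 RNAi list, 105 were also among the 222 of the Kc GFP RNAi list (47.3%) and 78 among those of S2 (35.1%). Of the 222 best-ranked of the Kc GFP RNAi list, 126 were among those of S2 (56.8%). The best-ranked sites thus overlapped in more cases between the 2 control libraries, from different cell lines, than between the 2 Kc libraries. This order was not particular to the sites. In regions lacking a Kc CP190 RNAi peak the score rho of Kc GFP RNAi with S2 was 0.581. In regions lacking an S2 peak that of the 2 Kc lists was 0.385. The median site was 197 places apart between Kc CP190 RNAi and Kc GFP RNAi and 163 places apart between Kc GFP RNAi and S2. More than 442.5 places separated the ranks of 128 sites (14.5%) in the first pair and of 100 (11.3%) in the second. These pairs share the Kc GFP RNAi library, and no test of the difference was made.

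**Figure D3:**
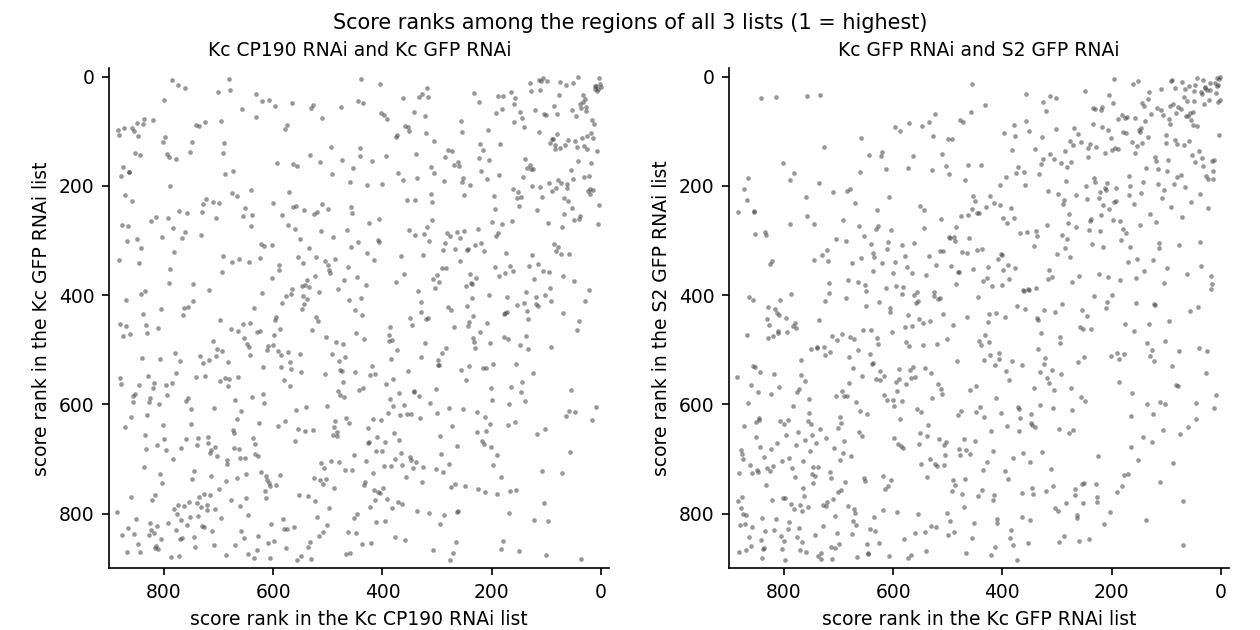
Score ranks of the 885 sites among themselves, 1 being the highest score of the list, for Kc CP190 RNAi against Kc GFP RNAi (left) and Kc GFP RNAi against S2 (right). Each point is a site; the points spread more widely in the left panel (rho 0.302) than in the right one (rho 0.477).

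A small group stood high everywhere. The highest score bin of all 3 lists held 65 sites (7.34%, 5.71 to 9.27%), 13 on 2L, 29 on 3L and 23 on 3R, with a median region width of 2577 bp against 1993 bp for the other 820. The widest bin of all 3 lists held 163 sites (18.4%, 15.9 to 21.1%), and 23 sites were in both groups. No list placed 401 sites (45.3%) in its highest score bin. At the other end, 8 sites lay in the lowest score bin of all 3 lists.

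The sites strongest in every list, ordered by their worst rank, began with 3L 3221652 to 3227045, a 5394 bp region. Its score was 1044.03 in Kc CP190 RNAi, 1330.11 in Kc GFP RNAi and 1121.84 in S2, or rank 3, 2 and 42. The peaks of the 3 libraries were 5366, 5338 and 5347 bp wide and had 5291 bp in common, so this broad domain had nearly the same limits in each.

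The next was 3L 13033489 to 13035717, with scores of 896.98 in Kc CP190 RNAi, 817.41 in Kc GFP RNAi and 1065.16 in S2. The site at 3L 14182451 to 14184659 followed. Among the 885 sites it ranked first by score in both control lists. It scored 444.8 in Kc CP190 RNAi (rank 43), 1724.78 in Kc GFP RNAi and 3100 in S2, over a 1992 bp stretch common to the peaks. The S2 value of exactly 3100 occurs on 4 autosomal S2 peaks, 1 of them in a site of all 3 lists.

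The other 7 of the 10 sites were spread over the arms. Those on 3R lay at 25870323 to 25873075, 17120992 to 17129556, 16773017 to 16777357 and 20185221 to 20186503, and those on 2L at 7826464 to 7829583, 539923 to 541990 and 21679976 to 21686143. Their worst ranks lay between 63 and 99. The narrowest of them, 3R 20185221 to 20186503, had peaks of 1056 bp in Kc CP190 RNAi, 1211 bp in Kc GFP RNAi and 1233 bp in S2, with scores of 351.88, 612.7 and 855.55. At 3R 17120992 to 17129556 the libraries called different lengths, 8455 bp in Kc CP190 RNAi, 7382 bp in Kc GFP RNAi and 4251 bp in S2. A strong site could therefore be a compact peak or a domain of several kb.

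**Figure D4:**
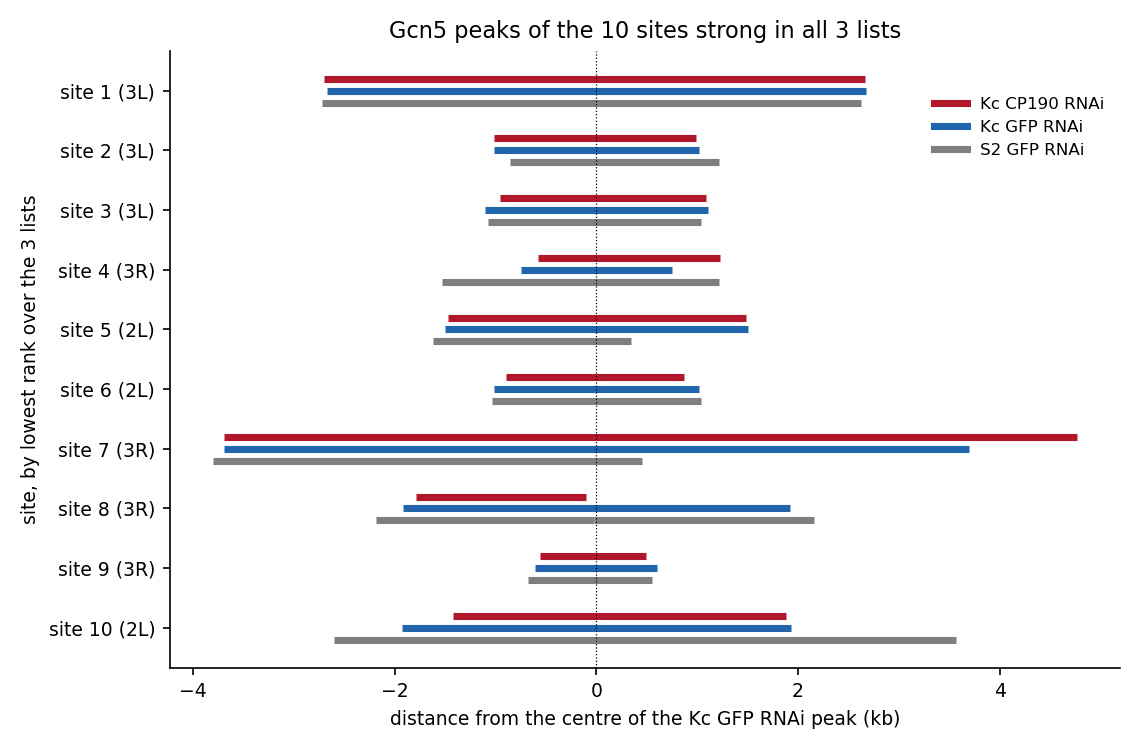
Extent of each Gcn5 peak at the 10 sites with the best worst rank, drawn as distance in kb from the centre of the Kc GFP RNAi peak, in order from site 1 (3L 3221652 to 3227045) down to site 10 (2L 21679976 to 21686143). Bars are called peaks coloured by library; the 3 libraries have nearly equal limits at site 1, while at site 7 the S2 peak covers 4251 bp of a region in which the Kc CP190 RNAi peak covers 8455 bp.

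The highest-scored site of the Kc CP190 RNAi list was also the widest of all. It lay at 3R 8327361 to 8337714 (10354 bp) and scored 3195.85 in Kc CP190 RNAi, against 837.09 in Kc GFP RNAi, where it ranked 19, and 240.58 in S2, where it ranked 389. A single Kc CP190 RNAi peak of 9998 bp covered 2 Kc GFP RNAi peaks of 9820 bp in all. The S2 peak was 902 bp wide and lay at the right end, so that only 450 bp were common to all 3 lists. Most of this domain was thus called in Kc cells alone.

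The second of that list, 3L 3191624 to 3199888, was called over nearly its whole length in every library. Its peaks were 8021 bp wide in Kc CP190 RNAi, 7896 bp in Kc GFP RNAi and 8161 bp in S2, with 7831 bp in common. Its scores were 1270.96 (rank 2), 886.97 (rank 13) and 120.75 (rank 606), so the S2 peak was as long as the Kc peaks but stood low in its own list.

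Some sites at the top of the S2 list stood low after CP190 RNAi. The second S2 site by score among the shared ones, 3R 3604503 to 3606957, scored 67.71 in Kc CP190 RNAi (rank 785), 991.59 in Kc GFP RNAi (rank 7) and 2943.44 in S2 (rank 2). Its peak was 835 bp wide in Kc CP190 RNAi, 1968 bp in Kc GFP RNAi and 2455 bp in S2. The third, 3L 17589490 to 17590890, scored 104.13 (rank 620), 639.66 (rank 44) and 2546.7 (rank 3). These sites count as kept after CP190 RNAi by the overlap rule, while standing near the bottom or in the lower part of the Kc CP190 RNAi scores.

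The sites whose rank was lowest in Kc CP190 RNAi relative to Kc GFP RNAi were of the same kind. They were 3L 15506061 to 15510338 (rank 884 against 97), 3L 1890535 to 1892630 (873 against 95), the 3R 3604503 site, 3R 12398467 to 12400845 (883 against 106) and 3R 14869977 to 14871174 (858 against 94). All 5 had S2 ranks between 2 and 152. Their Kc CP190 RNAi scores lay between 50.2 and 67.71, just above the lowest of the list, 50. At 3L 1890535 to 1892630 the peak was 592 bp wide in Kc CP190 RNAi, against 1982 bp in Kc GFP RNAi and 2051 bp in S2. These 5 were picked for the difference in rank, which is therefore given without a test.

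The reverse was found at 3R 228135 to 230615 (rank 37 in Kc CP190 RNAi against 883 in Kc GFP RNAi), 3R 5957677 to 5960815 (101 against 876), 2L 4462609 to 4464116 (150 against 868), 3R 12902543 to 12907384 (98 against 814) and 3R 4864113 to 4866096 (123 against 811). Their S2 ranks were 247, 691, 472, 37 and 466 in the order named, each better than the Kc GFP RNAi rank. At 3R 228135 to 230615 the Kc peaks were nearly equal in width, 2246 bp in Kc CP190 RNAi and 2290 bp in Kc GFP RNAi, with scores of 461.27 and 51.37. A score near the bottom of a list thus did not go with a short peak at this site.

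Between the cell lines, 3L 21618323 to 21620079 stood lowest in Kc GFP RNAi relative to S2, with rank 842 against 39. It was followed by the 3R 12902543 site (814 against 37), 2L 9612240 to 9615577 (757 against 36), 2L 10229995 to 10233847 (733 against 34) and 3R 18405845 to 18406953 (865 against 186). The opposite was seen at 3R 23096950 to 23102211 (rank 69 in Kc GFP RNAi against 857 in S2), 2L 417231 to 422259 (70 against 776), 3L 4261377 to 4263115 (138 against 811), 2L 854361 to 856090 (111 against 741) and 3L 21042276 to 21043482 (87 against 707). Shared sites therefore included some that stood high in the Kc GFP RNAi list and low in the S2 list, and the reverse. The Kc CP190 RNAi list did not always side with Kc GFP RNAi. There the sites low in Kc GFP RNAi ranked 744, 98, 415, 183 and 184, in the order named. Those high in Kc GFP RNAi ranked 81, 100, 753, 376 and 838.

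Apart from the 10354 bp domain on 3R, the widest regions were 3R 17120992 to 17129556 (8565 bp), 3R 16370123 to 16378663 (8541 bp), 3R 21877283 to 21885800 (8518 bp) and 2L 5975567 to 5983971 (8405 bp). They were put together in different ways. At 2L 5975567 to 5983971 each library had 1 long peak, of 7187 bp in Kc CP190 RNAi, 7230 bp in Kc GFP RNAi and 8179 bp in S2. At 3R 21877283 to 21885800 there were 4 peaks of Kc CP190 RNAi, 2 of Kc GFP RNAi and 2 of S2. At 3R 16370123 to 16378663 the Kc CP190 RNAi peak was 8531 bp wide with a score of 58.37 (rank 836 in its list). The Kc GFP RNAi peak there was 2820 bp wide with a score of 542.82 (rank 77 in its list). The narrowest site, 2L 14348329 to 14349268, was 940 bp wide, with peaks of 789 bp in Kc CP190 RNAi, 888 bp in Kc GFP RNAi and 885 bp in S2.

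The edge of the definition was soft. Among the sites with a base common to all 3 lists, the shortest overlaps of a pair of peaks were at 3L 11115780 to 11117950 (32 bp in common), 3L 11127716 to 11129678 (47 bp) and 2L 9385727 to 9388706 (62 bp). Of the chained sites without a common base, 3L 10686622 to 10692185 was the most spread out. Its S2 peak of 5564 bp spanned a Kc CP190 RNAi peak of 818 bp and a Kc GFP RNAi peak of 953 bp whose centres lay 4211.5 bp apart. It was kept by the rule although the Kc peaks did not touch.

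Just outside it was a pair of neighbouring regions on 2L. The region at 5944505 to 5950608, with Kc GFP RNAi and S2 peaks, began 22 bp after the Kc CP190 RNAi peak of the region at 5943169 to 5944482, which lacked an S2 peak. Near misses of this kind were few. Of the 919 regions lacking a Kc CP190 RNAi peak, 39 had one within 1000 bp (4.24%), and the median distance was 18.4 kb. Of the 669 lacking an S2 peak 55 had one that near (8.22%), and of the 157 lacking a Kc GFP RNAi peak 20 did (12.7%). The median distances there were 7.4 kb and 4.9 kb. The missing lists differ in length, so the 3 distances are not on a like footing. The lowest-scored site of both the Kc CP190 RNAi and the S2 list was 3R 7566615 to 7568727, at 50.15 in Kc CP190 RNAi, 75.9 in Kc GFP RNAi and 50.12 in S2. With a score of at least 100 asked of every peak, 433 sites were left.

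Sites of all 3 lists had another such site as nearest neighbour more often than other regions did. The nearest union region was itself such a site for 248 of the 885 (28.0%, 25.1 to 31.1%), against 688 of the 3723 other regions (18.5%, 17.2 to 19.8%) and 20.3% of all union regions. The share was lowest, at 14.0% (11.9 to 16.5%), next to regions lacking a Kc CP190 RNAi peak, and 20.2% (17.2 to 23.4%) next to regions lacking an S2 peak. Next to regions called in S2 alone it was 16.3% (14.2 to 18.6%). The intervals of the remaining classes overlap that of the sites. The share was 25.5% (18.9 to 33.0%) next to regions lacking a Kc GFP RNAi peak. It was 23.8% (20.2 to 27.8%) next to those of Kc CP190 RNAi alone and 23.1% (18.7 to 27.9%) next to those of Kc GFP RNAi alone. Some other classes lay beside their own kind about as often or more often. The nearest region was of the same class for 32.8% of regions lacking a Kc CP190 RNAi peak, 27.8% of those lacking an S2 peak and 36.3% of those called in S2 alone. The intervals cover counting error only, and neighbouring regions are not independent. Sites of all 3 lists also had closer neighbours of any kind than the other regions pooled. The median gap to the nearest union region was 2911 bp against 3718 bp. This was not particular to them. The gap was 2146 bp for regions lacking a Kc GFP RNAi peak and 3087 bp for those lacking an S2 peak. It was longest, 4630 bp, for those lacking a Kc CP190 RNAi peak. How far this density bears on the share was not tested. With all centres within 250 bp, when sites were 11.6% of the union regions, the share was 18.4%.

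**Figure D5:**
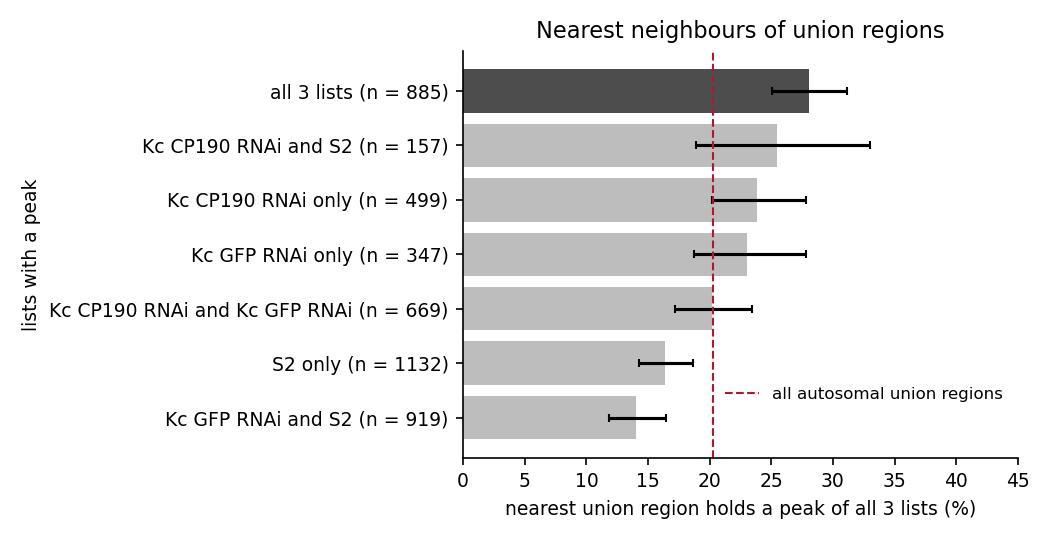
Share of union regions whose nearest union region on the same arm holds a peak of all 3 lists, by the lists that call the region, with exact 95% binomial intervals. The bar of the sites themselves stands at 28.0% and that of regions with Kc GFP RNAi and S2 peaks but no Kc CP190 RNAi peak at 14.0%; the dashed line marks 20.3%, the share over all 4608 regions.

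The spacing was uneven. Consecutive sites were a median of 36.4 kb apart (quartiles 10.4 and 113.0 kb), 214 of the 882 intervals were under 10 kb and 245 over 100 kb. Uninterrupted by any other union region, 12 runs held 4 or more sites. The longest, 6 sites in 18.1 kb at 3L 12999166 to 13017281, mixed strong and weak ones. Its last site, 3L 13014616 to 13017281, scored 335.3 in Kc CP190 RNAi, 244.91 in Kc GFP RNAi and 1192.28 in S2, while the second, 3L 13000781 to 13001978, scored 61.02, 85.32 and 56.75. A run of 5 sites lay at 3R 4828502 to 4846771, in 18.3 kb.

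Windows of 100 kb showed the same unevenness. Of 756 windows 314 held no site, and 16 windows with 5 or more held 94 sites (10.6%). The fullest were 2L 10200001 to 10300000 with 9 sites among 23 union regions, its neighbour 2L 10300001 to 10400000 with 8 among 16, and 3L 9400001 to 9500000 with 8 among 16. The longest stretches without a site were 786 kb at 3L 22069926 to 22856283, 781 kb at 2L 15502272 to 16283245 and 720 kb at 3L 9966329 to 10686621. They were not free of Gcn5, since they held 30, 43 and 31 other union regions. On the larger scale, the 1 Mb window of 2L from 10000001 held 31 sites among 100 union regions, and that from 14000001 held 1 among 38.

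The share varied along the arms. Cut into 4 equal parts from the telomere to the centromere, the 3 arms together had 16.0% (13.9 to 18.3%), 22.0% (19.7 to 24.4%), 20.3% (18.0 to 22.8%) and 18.2% (15.9 to 20.6%) of their union regions in sites of all 3 lists. The interval of the outermost part overlaps that of the innermost. The low pooled value rests on 3R, whose outermost part had 12.1% (9.14 to 15.7%), while those of 2L and 3L had 18.2% and 18.3%. On 2L the lowest part was the third, with 12.8% (9.32 to 16.9%).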

How the data were processed

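Gcn5 ChIP-seq peak lists of 3 libraries were used. The submitters' processing notes name the build dm3 and, as tools, Bowtie, MACS, bedtools and HOMER. Their versions and roles, the peak threshold and any use of the inputs were not given in the sources used here. Each deposited peak carries 1 score, the authors' own, with no normalization between libraries, so scores were ranked only within a list. Scores of different lists printed side by side for a site are not levels to be compared. The alternative with scores of 100 or more did apply 1 cut to all lists. It kept 1277 autosomal peaks of Kc CP190 RNAi, 1869 of Kc GFP RNAi and 2035 of S2. Depth is unknown, and a missing peak does not show absence of Gcn5.

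The chr prefix of the Kc lists, which the S2 list lacks, was removed. Positions are 1-based on dm3. Where a region held several peaks of a list, widths were summed and the highest score was used. Centre distances and common bases were then taken from the peaks, 1 per list, with the most bases in common. Ties went to the nearest centres. Bins are quintiles of a list's autosomal peaks. Intervals are exact (Clopper-Pearson) 95% binomial and cover counting error only. Merging was tested on simulated data and against bedtools. Python 3.11.15, pandas 2.3.3 and scipy 1.17.1 were used.

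No dm3 genome or annotation was used here, so no gene, promoter, motif or sequence is given, and the comparisons planned for them were not run. The sites and the rule for naming them were chosen with earlier results of these data known. The rule named the 10 sites with the best worst rank, the extremes of score, width, rank difference and overlap, and the fullest windows and longest gaps. The sites quoted from runs, the 1 Mb windows and the arm parts were picked after their values were seen. With 1 library per condition there is no replicate check and no p-value.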

Additional observations from a re-analysis of the deposited data

How the results depend on the processing

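Of 89 values recomputed under other settings, 46 stayed within 1.5 times (the number of sites) or within the exact interval of the main value, and 43 did not. Requiring a base common to all 3 peaks moved none of 9, and merging peaks within 200 bp moved 1 of 10, the share of sites with a common base, to 97.1%.

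With scores of 100 or more in every list there were 433 sites, 14.2% of union regions. They held 35.1% of Kc CP190 RNAi, 23.6% of Kc GFP RNAi and 21.7% of S2 peaks, had a median width of 2152 bp, and 20.3% had a site as nearest region. With 2274 peaks per list these were 665 sites, 17.2% of union regions, 30.7% of Kc CP190 RNAi, 30.5% of Kc GFP RNAi and 29.9% of S2 peaks, and 24.1% with a site as nearest region.

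With every pair overlapping by 50% of both peaks, 736 sites made up 16.0% of union regions and held 33.1% of Kc CP190 RNAi, 26.1% of Kc GFP RNAi and 23.8% of S2 peaks. Their median width was 1850 bp, 100% had a common base, and centre distances were 58.75 bp (Kc CP190 RNAi to Kc GFP RNAi) and 81 bp (Kc GFP RNAi to S2). With all centres within 250 bp, 534 sites made up 11.6% and held 23.7%, 18.9% and 17.3% of the same lists. Their median width was 1577.5 bp, 100% had a common base, the centre distances were 43.25 and 59.5 bp, and 18.4% had a site as nearest region. Shorter distances follow from that rule itself.

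Taken alone, 2L gave 246 sites, 17.4% of its union regions, 26.1% of its S2 peaks, a width of 2126.5 bp and a Kc GFP RNAi to S2 distance of 126.75 bp. On 3L these were 302, 20.6%, a width of 1947 bp and 92 bp, with 44.2% of Kc CP190 RNAi and 34.5% of Kc GFP RNAi peaks. On 3R there were 337 sites, with 30.9% of S2 peaks. No paired analysis was possible because no condition had a second library, and no replicate could be left out. Beyond the alternatives' own construction, the cause of these moves was not tested. Depth is unknown, so no limit can be set on sites that were missed.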
